A study of Mus musculus with 4 samples.

Results

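Voltage-gated calcium channels are built around a pore subunit, to which a cytoplasmic β subunit and a largely extracellular α2δ subunit attach. The genes described here are the 8 that encode these auxiliary subunits in the mouse, Cacnb1 to Cacnb4 for β and Cacna2d1 to Cacna2d4 for α2δ, chosen by symbol from the 52636 genes of the count table. All 8 were found, and 8 of 8 passed the filter on low counts that left 16924 genes for testing. RNA was sequenced from whole pancreatic islets, in 2 control libraries from wild-type mice (genotype WT) and 2 libraries from Tspan7 knockout mice (genotype TSPAN7 KO, Tspan7 y/-). Tspan7 encodes a tetraspanin membrane protein and is X-linked. The sample labels name a knockout, whereas the text on the series as a whole names a knockdown, and the sample labels were used. No label gives the strain, the age, the glucose at which the islets were held or the number of animals behind a library.

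In a beta cell, closing of the potassium channels that sense glucose metabolism depolarizes the membrane, the pore opens, and the calcium that enters triggers fusion of insulin granules. The β subunit binds an intracellular loop of the pore, brings the channel to the surface and sets how readily it opens and inactivates. The α2δ subunit raises the number of channels at the surface and is the binding site of gabapentinoid drugs. The series concerns the calcium sensitivity of beta-cell exocytosis, so the comparison asks whether islets without Tspan7 carried different levels of the subunit transcripts through which calcium entry is regulated.

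Library totals ranged from 7855665 to 9377220 counts, and 3 counts, taken as the detection floor, corresponded to between 0.312 and 0.398 CPM, the count scaled to library size. Tspan7 counts were 1924 and 1795 in control libraries but 3 and 2 in knockout libraries, so the targeted gene matched the labels in all 4. It was the only gene called at an adjusted p under 0.05 (edgeR quasi-likelihood test, 0 higher and 1 lower, or 0.00591% of the genes tested). No label says that libraries of a group came from separate animals, so the p-values measure the spread between these libraries, which may be technical. The islet hormone genes were abundant in every library, with Ins2 at 51074 to 53531 counts and Gcg at 48062 to 66675. RNA of acinar cells, the enzyme-secreting cells around the islets, varied most: 6 marker genes summed to 2120 and 51.9 CPM in control replicates 1 and 2 and to 952 and 4456 CPM in knockout replicates 1 and 2. The summed markers of the other cell types differed by at most 1.69 times between libraries, and no marker was at 0 in all 4 libraries.

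None of the 8 auxiliary subunit genes was called in knockout islets, and none had an unadjusted p under 0.05, a level that 3.51% of all tested genes reached. For each member edgeR gave an adjusted p of 1. Their log2 fold changes, knockout against control, ran from -0.51 to 0.18 with a median of 0.10, and 6 were positive and 2 negative. Over all tested genes the median was 0.0034, with 8567 positive and 8357 negative values. In whole islets, fewer cells of a type and less RNA per cell cannot be told apart.

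**Figure D1:**
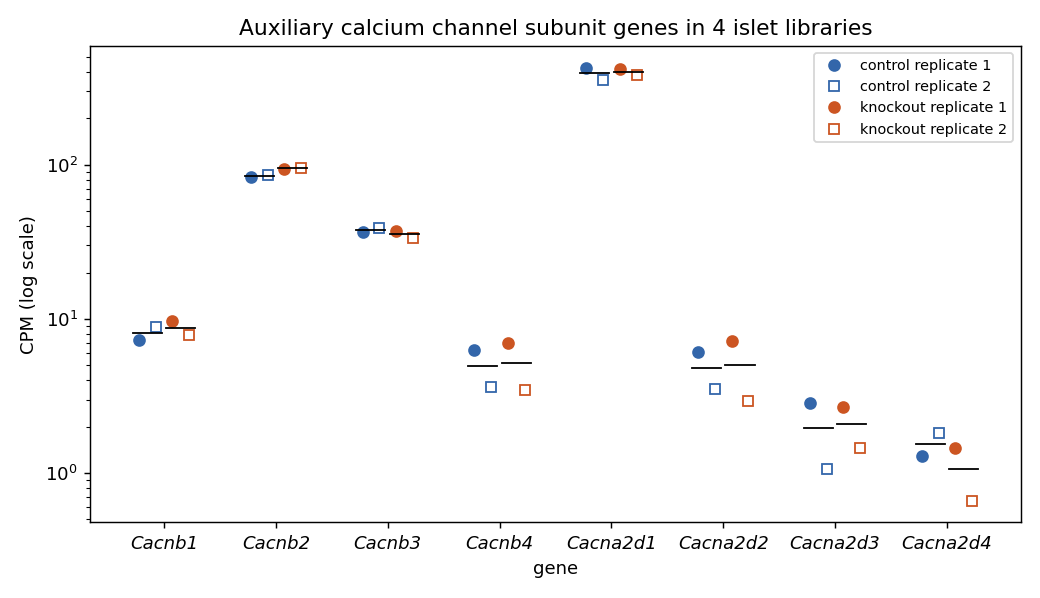
CPM of the 8 auxiliary subunit genes on a log scale. Each point is 1 library (circles for replicate 1, open squares for replicate 2, blue for control, orange for knockout) and black lines are group means of 2 libraries. Only Cacnb2 has both knockout libraries (94.6 and 96.1 CPM) above both control libraries (83.2 and 85.7), while Cacnb4, Cacna2d2 and Cacna2d3 separate by replicate number.

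Of the β subunit genes, Cacnb2 and Cacnb3 were the abundant pair. Cacnb2 (ENSMUSG00000057914, chromosome 2), whose product carries several alternative N-termini and pairs with L-type pores in heart, measured 83.2 and 85.7 CPM in control and 94.6 and 96.1 CPM in knockout islets. Both knockout libraries lay above both control libraries, and Cacnb2 was the only member whose groups did not overlap (30.3% of all tested genes had groups without overlap, 15.3% with the knockout above). The difference did not pass the test, at a log2 fold change of 0.18 ± 0.13 (SE; adjusted p = 1 with edgeR). Its 95% confidence interval (CI) of -0.12 to 0.47 covers a knockout level from 0.92 to 1.39 times that of control. The value was between 0.15 and 0.20 when any 1 library was left out.

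Cacnb3 (ENSMUSG00000003352, chromosome 15), the β isoform best known from neurons and smooth muscle and also present in beta cells, gave 36.6 and 38.7 CPM in control and 37.2 and 33.5 CPM in knockout libraries. The groups overlapped, with knockout replicate 2 lowest, and the log2 fold change was -0.09 ± 0.14 (95% CI -0.42 to 0.25). Cacnb1 (ENSMUSG00000020882, chromosome 11), which encodes the skeletal muscle β subunit, was lower at 7.34 and 8.93 CPM in control and 9.66 and 7.82 CPM in knockout libraries. Its log2 fold change of 0.11 ± 0.24 became -0.03 without control replicate 1 and -0.06 without knockout replicate 1. Cacnb4 (ENSMUSG00000017412, chromosome 2), the β isoform enriched in cerebellum, had 53 and 34 counts in control islets and 67 and 26 in knockout islets, or 6.27, 3.61, 6.96 and 3.45 CPM. It was high in replicate 1 and low in replicate 2 of either genotype, and the groups overlapped, at a log2 fold change of 0.10 ± 0.41.

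The α2δ genes were dominated by Cacna2d1 (ENSMUSG00000040118, chromosome 5), the widely expressed isoform bound by gabapentin. It measured 428 and 357 CPM in control and 421 and 382 CPM in knockout libraries, and the knockout values lay between the control values. The log2 fold change was 0.03 ± 0.14, and its 95% CI of -0.30 to 0.36 covers a knockout level from 0.81 to 1.29 times control. It turned to -0.09 without control replicate 2 and to -0.04 without knockout replicate 1, and was 0.17 without control replicate 1. Of all counts on the 4 α2δ genes, Cacna2d1 held 97.7% (95% exact binomial interval 97.1% to 98.1%) and 98.2% (97.7% to 98.7%) in control replicates 1 and 2. It held 97.4% (96.8% to 97.8%) and 98.7% (98.2% to 99.1%) in knockout replicates 1 and 2. These intervals cover counting error within a library only and leave out the spread between libraries. The reads carried no molecular identifiers, so copies of 1 molecule could not be told from separate molecules.

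The order of the 4 libraries for Cacna2d1, highest in control replicate 1, then knockout replicate 1, knockout replicate 2 and control replicate 2, was also that of 2 endocrine marker sums. The 5 alpha-cell markers summed to 8339, 7632, 7066 and 6385 CPM in that order of libraries, and the 3 delta-cell markers to 1140, 1054, 969 and 816 CPM. The 7 beta-cell markers did not follow it, at 17456, 13876, 19009 and 15141 CPM. The part of these cell types in the Cacna2d1 values was not tested.

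The other α2δ genes had far fewer counts, from 5 to 69 per library. Cacna2d2 (ENSMUSG00000010066, chromosome 9), an isoform of cerebellum and lung, had 52 and 33 counts in control islets and 69 and 22 in knockout islets, with a log2 fold change of 0.10 ± 0.46. Cacna2d3 (ENSMUSG00000021991, chromosome 14), a neuronal isoform, had 24 and 10 counts in control islets and 26 and 11 in knockout islets (log2 fold change 0.14 ± 0.54). Both were high in replicate 1 and low in replicate 2 of either genotype. Cacna2d4 (ENSMUSG00000041460, chromosome 6), the isoform of photoreceptors, was the scarcest at 11 and 17 counts in control islets and 14 and 5 in knockout islets. It had the largest difference of the 8, -0.51 ± 0.52 on the log2 scale, which was -1.21 without knockout replicate 1 and -0.10 without knockout replicate 2. At these depths its 95% CI, -1.71 to 0.68, reaches from 0.31 to 1.60 times the control level.

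Levels were compared between genes after division by the length of the union of a gene's annotated exons. On this scale Cacna2d1 led with 32.0 ± 2.70 CPM per kilobase (SD over the 4 libraries), followed by Cacnb3 at 9.10 ± 0.539, Cacnb2 at 6.80 ± 0.486 and Cacnb1 at 1.86 ± 0.232. The library ranges of these 4 genes did not overlap with those of their neighbours in the order. Then came Cacna2d2 (0.621 ± 0.258) and Cacnb4 (0.566 ± 0.201), whose ranges overlapped, and Cacna2d3 (0.231 ± 0.102) and Cacna2d4 (0.138 ± 0.0505), whose ranges overlapped too.

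The order of Cacnb3 and Cacnb2 depended on the length used. Cacnb2 has 16 annotated transcripts whose exons together span 13228 bases, against 5030 in the longest transcript, while for Cacnb3 the lengths are 4010 and 2734 bases. With the longest transcript Cacnb2 stood at 17.9 ± 1.28 CPM per kilobase and Cacnb3 at 13.3 ± 0.791. The levels per kilobase therefore do not say which of the 2 β transcripts was more abundant, whereas Cacna2d1 led all 8 with either length (53.4 ± 4.52 with the longest transcript).

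**Figure D2:**
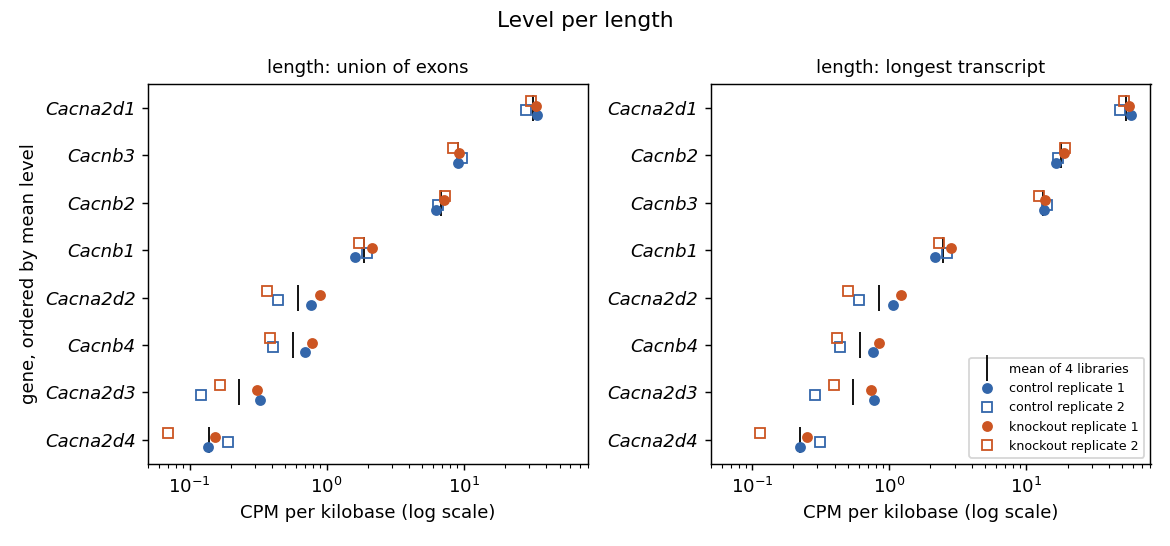
Level of each gene in CPM per kilobase on a log scale, with the length taken from the union of exons (left) or from the longest transcript (right). Points are libraries and the upright mark is the mean of 4. Cacna2d1 is at the top of both panels, at 32.0 and 53.4 CPM per kilobase, and Cacnb2 and Cacnb3 change places.

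Within the β family the share of Cacnb3 was lower in both knockout libraries. Per kilobase of exon union, Cacnb3 made up 51.4% and 52.2% of the β transcripts in control libraries and 48.0% and 47.1% in knockout libraries, and Cacnb2 made up 35.5% and 35.0% against 37.0% and 41.0%. With the longest transcript the Cacnb3 shares were 40.7% and 41.3% against 37.7% and 36.0%, so the groups did not overlap with either length. Both lengths rest on the same counts. The CPM of Cacnb3 itself overlapped between groups, while that of Cacnb2, which enters the β sum, was higher in both knockout libraries. Taken singly, 30.3% of all tested genes had groups without overlap in CPM. Cacnb1 held 9.14% to 11% and Cacnb4 2.17% to 4.02% over the 4 libraries. The shares were looked at after the single-gene values were known and were not tested. Cacna2d1 made up 96.1% to 98.1% of the α2δ family, with overlapping groups.

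Against the high-voltage-activated pore genes, which are the pores that bind these subunits, the β genes summed to 0.67 and 0.66 times the pore sum per kilobase in control and 0.62 and 0.60 times in knockout libraries. With the longest transcript the ratios were 0.90 and 0.89 in control and 0.83 and 0.84 in knockout libraries. The ratio was lower in both knockout libraries, and it was not tested. Of the tested pore genes, 3 were higher in both knockout libraries and 0 were lower in both. Cacna1d, the largest part of the pore sum, measured 168 and 172 CPM in control and 197 and 194 CPM in knockout libraries. A lower ratio therefore does not by itself mean a lower β level. Taken singly, 30.3% of all tested genes had groups without overlap. The α2δ genes summed to 1.35 and 1.05 times the pore sum in control and 1.12 and 1.06 times in knockout libraries, where the groups overlapped.

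Within the gene body of Cacnb2 the annotation places 15 other features, of which 7 lie on the same strand and share no exon base with it. Among these 7 are 5 of the class TEC, transcribed stretches still to be characterized, which lie between Cacnb2 exons. Together the 7 gave 13.7 and 13.8 CPM in control and 23.1 and 23.3 CPM in knockout libraries, higher in both knockout libraries. The largest, Gm37891, counted 32 and 38 reads in control islets and 55 and 63 in knockout islets. On the log2 scale its fitted difference was 0.83 ± 0.30 (adjusted p = 1 with edgeR). Of the 6 tested, 6 had positive values and 0 were called. Higher values were not particular to the same strand. The 3 opposite-strand features that share exon bases gave 7.34 and 6.48 CPM in control and 10.4 and 7.95 CPM in knockout libraries. For the 5 opposite-strand features without shared exon bases the groups overlapped, at 6.27 and 3.83 against 6.34 and 5.57 CPM. These features were singled out after their values were seen.

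Most TEC features of the table also had positive values, and none was called. Of 833 tested, 626 (75.2%) had positive log2 fold changes, with a median of 0.26, and 303 (36.4%) had both knockout libraries above both control libraries against 55 (6.60%) below. Protein-coding genes had a median of -0.01. The class summed to 5540 and 6287 CPM in control and 6579 and 6350 CPM in knockout libraries. The part of unspliced RNA in the Cacnb2 values was not tested.

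Cacnb4, Cacna2d2 and Cacna2d3 varied together across libraries, although they lie on 3 chromosomes. Cacnb4 was 1.74 times as high in control replicate 1 as in control replicate 2 (95% counting interval 1.11 to 2.75) and 2.02 times as high in knockout replicate 1 as in knockout replicate 2 (1.27 to 3.31). For Cacna2d2 the ratios were 1.75 (1.11 to 2.80) and 2.46 (1.5 to 4.17). For Cacna2d3 they were 2.67 (1.23 to 6.26) and 1.85 (0.88 to 4.15). The abundant Cacnb2 gave 0.97 and 0.98, and Cacna2d1 1.20 and 1.10. Thus 3 of 8 members stood at least 1.3 times higher in replicate 1 in both groups, as did 2.12% of all tested genes. The limit of 1.3 was set after these values were seen, and genes of few counts reach it more easily than abundant ones.

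The alpha-cell and delta-cell marker sums given above were also higher in replicate 1 than in replicate 2 of both groups. Of their hormone genes, Gcg was 1.29 times as high in control replicate 1 as in control replicate 2 and 1.09 times as high in knockout replicate 1 as in knockout replicate 2, and Sst 1.42 and 1.07 times. The acinar marker sums had another order, lowest in control replicate 2 and highest in knockout replicate 2. The 5 Schwann and neuronal markers summed to 12.9 and 17.1 CPM in control and 16.3 and 13.3 CPM in knockout replicates 1 and 2. The part of these cell types in the values of the 3 genes was not tested. The knockout difference of the 3 genes turned with the library left out. For Cacnb4 it ran from -0.51 without knockout replicate 1 to 0.55 without control replicate 1, for Cacna2d2 from -0.71 without knockout replicate 1 to 0.57 without knockout replicate 2, and for Cacna2d3 from -0.42 without control replicate 2 to 0.99 without control replicate 1.

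**Figure D3:**
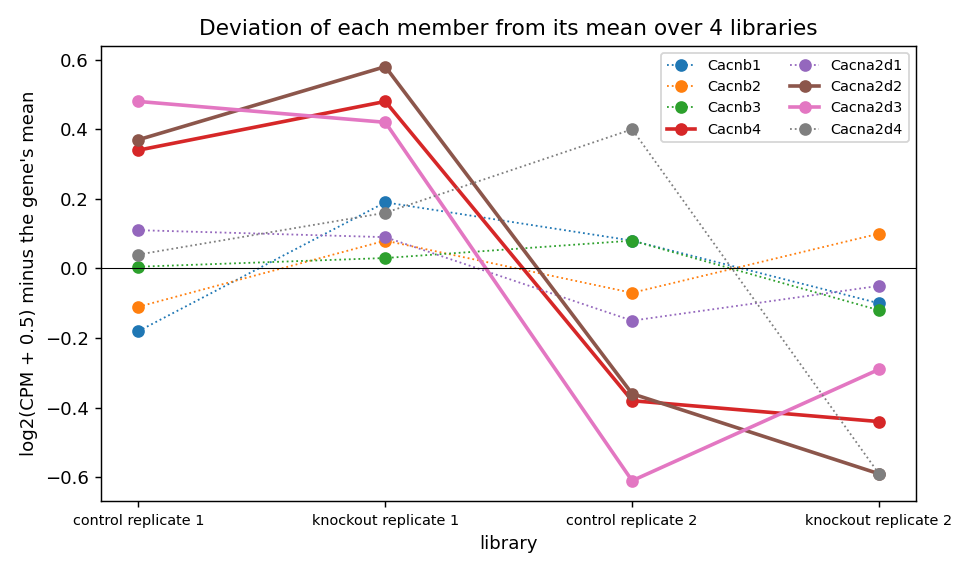
Deviation of each auxiliary subunit gene from its own mean over the 4 libraries, in log2(CPM + 0.5), with the libraries ordered by replicate number. Thick lines mark Cacnb4, Cacna2d2 and Cacna2d3, which stand above their mean in both replicate 1 libraries (0.34 to 0.58) and below it in both replicate 2 libraries (-0.29 to -0.61).

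For these 3 genes, singled out after their values were seen, the promoter windows of RefSeq's annotation are shown. The build is GRCm38.p6, and a window runs from 250 bases before to 50 after the start. Each GGGCGG box and its reverse complement CCGCCC is in capitals. Shared regulation of the 3 genes was not tested. Cacnb4 has 3 windows, of which the one farthest upstream is given. The windows lie at chr2:52676094-52676393 on the minus strand for Cacnb4, chr9:107399630-107399929 on the plus strand for Cacna2d2 and chr14:29721815-29722114 on the minus strand for Cacna2d3.
Cacnb4: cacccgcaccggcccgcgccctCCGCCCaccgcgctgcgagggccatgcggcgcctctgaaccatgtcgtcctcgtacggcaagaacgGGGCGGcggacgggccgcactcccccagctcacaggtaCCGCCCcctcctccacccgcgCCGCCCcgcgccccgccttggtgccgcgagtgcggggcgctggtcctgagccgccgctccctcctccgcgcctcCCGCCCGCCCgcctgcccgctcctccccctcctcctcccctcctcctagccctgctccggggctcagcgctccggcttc
Cacna2d2: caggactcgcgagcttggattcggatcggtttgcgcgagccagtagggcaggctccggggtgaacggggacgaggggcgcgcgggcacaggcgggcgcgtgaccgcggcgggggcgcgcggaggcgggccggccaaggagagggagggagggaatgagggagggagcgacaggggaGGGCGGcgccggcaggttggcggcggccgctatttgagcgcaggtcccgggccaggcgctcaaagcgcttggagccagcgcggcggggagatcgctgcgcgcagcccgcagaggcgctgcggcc
Cacna2d3: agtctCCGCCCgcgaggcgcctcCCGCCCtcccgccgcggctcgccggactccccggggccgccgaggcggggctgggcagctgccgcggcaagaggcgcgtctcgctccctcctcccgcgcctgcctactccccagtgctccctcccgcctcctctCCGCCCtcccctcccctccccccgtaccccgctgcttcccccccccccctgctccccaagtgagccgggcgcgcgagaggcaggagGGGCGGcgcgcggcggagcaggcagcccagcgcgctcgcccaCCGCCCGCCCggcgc

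The 3 windows are rich in G and C, at 78.3%, 75.7% and 81.3% of bases, against a median of 52.7% (quartiles 45.7% and 61.7%) over 32851 windows of the same length. The box GGGCGG, sought on both strands with overlaps allowed, occurs 6 times for Cacnb4, 1 time for Cacna2d2 and 6 times for Cacna2d3, and 35.7% of all windows hold it. The other Cacnb4 windows, not shown, hold it 0 times, with 69.7% and 49.7% G and C. The Cacna2d1 window, which has 80.0% G and C, holds it 7 times, so this feature is not particular to the 3 genes. The letters TATAAA, present in 13.6% of all windows on either strand, occur in 0 of the 12 windows that matched 7 of the 8 genes. Cacna2d4 had no entry. Matches of letters describe these windows and are not evidence of binding.

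For 2 of the scarce members the counts run close to those of a gene on the opposite strand. A430018G15Rik, a noncoding transcript whose exons overlap those of Cacnb4 by 1433 bases, counted 44 and 25 reads in control islets and 46 and 21 in knockout islets, which is 0.69 to 0.83 times the Cacnb4 count in each library. Lrtm2 lies inside Cacna2d4 on the opposite strand without shared exon bases, and its 23, 37, 33 and 11 counts were 2.09, 2.18, 2.36 and 2.20 times those of Cacna2d4. The libraries were made with a strand-marking kit, but whether counting used the strand is not given in the sources used here, so the reads of Cacnb4 and A430018G15Rik cannot be told apart with certainty. Both pairs were picked out with their counts in view. The 3 opposite-strand features that share exon bases with Cacnb2 summed to 60 to 100 counts per library, against 703 to 911 for Cacnb2.

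Of the 10 pore genes, 8 were tested and 0 were called, with log2 fold changes from -0.82 to 0.51 and a median of 0.03. Cacna1d, the L-type pore that opens at lower voltages, led the pores with 46.7% to 51.4% of the summed level per kilobase. It measured 168 and 172 CPM in control and 197 and 194 CPM in knockout libraries, without overlap, at a log2 fold change of 0.20 ± 0.13 (adjusted p = 1 with edgeR). The P/Q-type pore Cacna1a also had both knockout libraries above control, at 75 and 81.7 against 86.3 and 84.2 CPM (0.12 ± 0.13). The L-type pore Cacna1c stood at 0.15 ± 0.15, and was -0.004 without knockout replicate 1. The retinal pore Cacna1f, with 10 to 17 counts per library, stood at 0.51 ± 0.44. Cacna1e, the R-type pore, had 8 and 12 counts in control islets and 11 and 0 in knockout islets, and Cacna1s, the skeletal muscle pore, was at 0 in all 4. Of the 8 tested pore genes 3 thus had groups apart, all with the knockout above, and 1 of the 3 was the scarce Cacna1f. Over all tested genes 30.3% had groups apart in either direction, and 15.3% had the knockout above. The direction was not set before the values were seen, so the count of 3 is not a result about the pore genes.

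**Figure D4:**
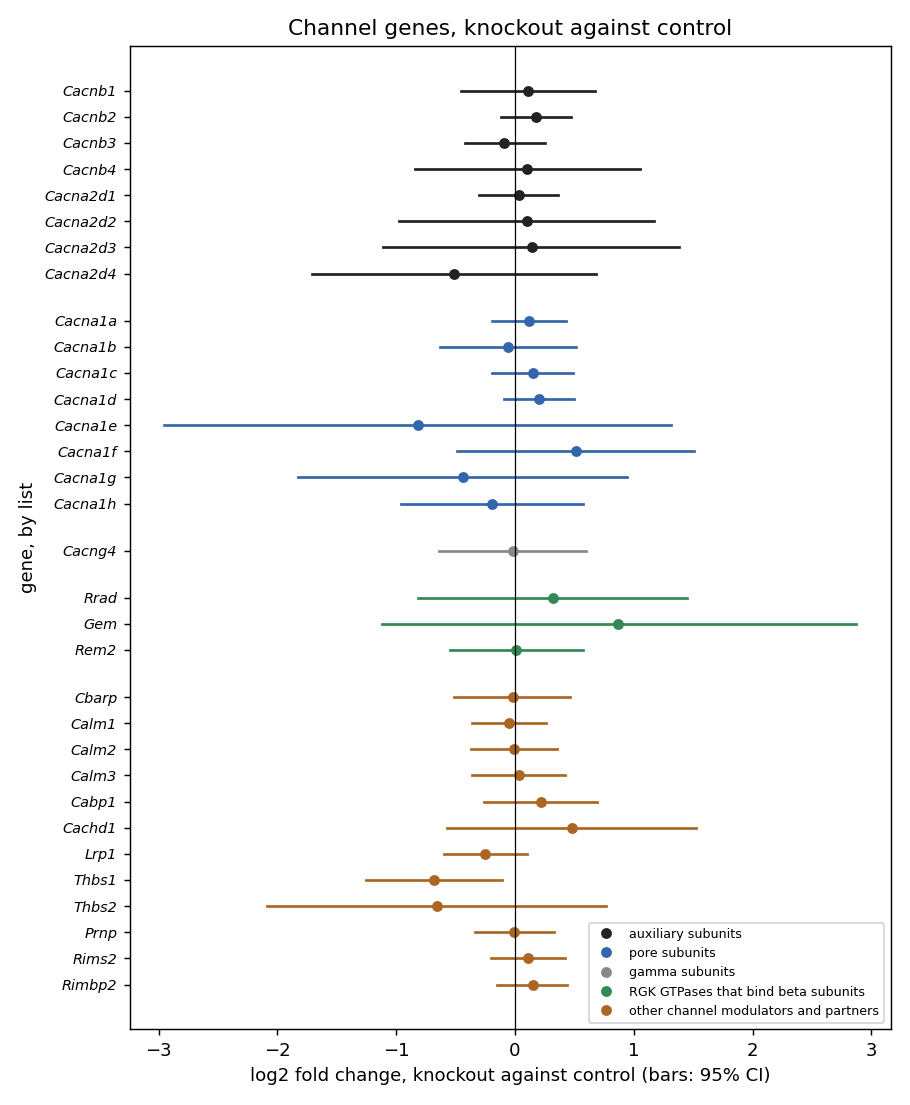
Log2 fold change, knockout against control, for the tested auxiliary subunit, pore and partner genes. Points are fitted values from edgeR and bars their 95% CI. Of the genes drawn, only Thbs1 has a bar that leaves out 0 (-1.25 to -0.11), and its adjusted p was 1.

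Among the 29 modulators and partners of the channels, 16 were tested, 0 were called over all genes, and the median log2 fold change was 0.004 with 8 positive and 8 negative values. Of the 8 γ subunit genes, further accessory proteins of calcium channels and glutamate receptors, only Cacng4 passed the filter, at 38 to 54 counts per library (-0.02 ± 0.27). The RGK GTPases bind β subunits and inhibit the channel, and 3 of 4 were tested. Gem, which is induced by calcium and stress signals, was the most abundant of these, with 443 and 195 counts in control islets and 422 and 681 in knockout islets. Its log2 fold change was 0.87 ± 0.66, with overlapping groups, and was 1.69 without control replicate 1, 0.35 without control replicate 2, 1.31 without knockout replicate 1 and 0.26 without knockout replicate 2. Its libraries had the order of the acinar marker sums, highest in knockout replicate 2 (90.3 CPM), then control replicate 1 (52.4), knockout replicate 1 (43.8) and control replicate 2 (20.7), and the part of acinar RNA in the Gem values was not tested. Rem2, known from beta cells as a glucose-regulated inhibitor of the channel, stood at 0.01 ± 0.24 and Rrad at 0.32 ± 0.50.

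Thbs1, which encodes a thrombospondin that binds the α2δ protein of Cacna2d1, had the smallest p of the partner genes, and the only unadjusted p under 0.05 among the 16 tested. It measured 142 and 242 CPM in control and 123 and 117 CPM in knockout libraries, at a log2 fold change of -0.68 ± 0.24 (adjusted p = 1 with edgeR). Control replicate 2 stood apart from the rest, and the value was -0.24 without it. Without control replicate 1 Thbs1 was called lower (-1.02, adjusted p = 0.0395). Markers of non-endocrine cells went both ways, and none was called. All 8 macrophage markers had negative values (median -0.67, summed level 94.2 and 80.9 CPM in control and 66.8 and 55.7 CPM in knockout libraries). Of 5 endothelial markers 4 were negative (median -0.25, summed level 308 and 321 CPM against 270 and 310 CPM), and of 7 stellate and smooth muscle markers 4 were negative and 3 positive (median -0.29, range -0.68 to 0.69). The 6 acinar markers were all positive (median 1.27), and the 3 tested ductal markers had a median of 0.11. Their part in the Thbs1 value was not tested. Lrp1, a receptor that carries α2δ to the surface, stood at -0.25 ± 0.15 and was -0.13 without knockout replicate 2. Thbs2, another thrombospondin gene, stood at -0.66 ± 0.62 (0.19 without control replicate 2) and Rimbp2, a scaffold that ties pores to the release machinery, at 0.15 ± 0.13.

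Over the 4 libraries, the pattern of Cacna2d1 was closest to those of Rims2, Rimbp2 and Rem2 among the 31 other tested genes of the channel lists. Their root mean square differences in centred log2 CPM were 0.084, 0.084 and 0.100, against a median of 0.197. Cacnb3 was closest to Cacng4 (0.065), Lrp1 (0.094) and Cacna1a (0.114), against a median of 0.217. With 4 libraries these distances only describe the samples at hand.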

How the data were processed

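The authors deposited 1 table of unnormalized counts, with a row per Ensembl gene and a column for each of the 4 libraries. Per the submitters' processing notes, HISAT2 and featureCounts were used with genome build GRCm39. For versions, annotation release and strand setting, the entry is: not given in the sources used here. Names, exon lengths and neighbouring genes came from GENCODE M21 on GRCm38, which named 52403 of 52636 identifiers. Which features overlap a member was read from that annotation's own coordinates, and none of these gene coordinates is printed. Counts were tested with edgeR 4.0.16 (R 4.3.3): filterByExpr with its minimum count of 10, trimmed mean of M-values scaling, and its two-sided quasi-likelihood test with robust moderation and Benjamini-Hochberg adjustment over all 16924 tested genes and a threshold of 0.05. All 4 libraries entered without a covariate. CPM values are means ± SD of 2 libraries where a group is given. On simulated counts (16565 genes tested) the test called 12% of 50 genes changed 1.5-fold and 54% of those changed 2-fold. It called 92% of those changed 3-fold and 98% of those changed 4-fold, and 5 of 133 calls were false. Changes were placed only in genes above a minimum level, and the simulated spread followed its trend with level. With 133 calls the adjusted threshold was easier to reach than in the data, where 1 gene was called. These shares therefore do not give the chance of calling a change in the 8 members. Alternatives were DESeq2 1.42.0, limma-voom 3.58.1, other scaling factors, no filter, a replicate block, each library left out, and the length of the longest transcript. The genes named were Tspan7, the 8 members, up to 4 genes of smallest p per channel list, Ins2, Gcg and the nearest patterns. Cacna1e, Cacna1s and the features overlapping members were added after their values were seen. The members and lists were chosen with earlier results of these data known.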

Additional observations from a re-analysis of the deposited data

How the results depend on the processing

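No auxiliary subunit gene and no pore gene was called under any of the 11 alternatives run. The number of genes called among all tested, 1 in the reported fit, was 6 with DESeq2, 62 without the low-count filter and 1 to 48 with 1 library left out (48 without control replicate 1, 2 without control replicate 2). Of the channel modulators and partners 1 gene, Thbs1, was called without the filter (-0.66, adjusted p = 0.0292) and 0 to 1 with a library left out. The auxiliary genes whose groups did not overlap, 1 with all libraries, numbered 4 to 5 with a library left out, where a group of 1 overlaps less easily. The share over all tested genes is not given for those fits, so this count says nothing particular about the members. With the replicate number as a block 6 genes were called in all and 0 auxiliary subunit genes. Same-numbered libraries did not deviate together from their group means (r = -0.30 across 16924 genes). With 2 libraries per group this cannot settle whether same-numbered libraries were paired, and no label says so. A crossed pairing, added after seeing the data, called 2 genes. Signs turned only with a library left out. The log2 fold changes then ran from -0.06 to 0.26 for Cacnb1, -0.51 to 0.55 for Cacnb4, -0.09 to 0.17 for Cacna2d1, -0.71 to 0.57 for Cacna2d2, -0.42 to 0.99 for Cacna2d3, -0.004 to 0.29 for Cacna1c, -0.14 to 0.11 for Cacng4, -0.05 to 0.65 for Rrad, -0.23 to 0.29 for Rem2, -1.24 to 0.19 for Thbs2, -0.18 to 0.24 for Ins2 and -0.19 to 0.19 for Gcg. Apart from fewer libraries, the cause was not tested. The 4 members with the fewest counts, Cacnb4, Cacna2d2, Cacna2d3 and Cacna2d4, had SEs of 0.41 to 0.54, against 0.13 to 0.24 for the rest.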
